A study of Mus musculus with 24 samples.

Results

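The genes described here are 9 mouse genes of major histocompatibility complex (MHC) class II presentation: H2-Aa, H2-Ab1, H2-Eb1, Cd74, H2-DMa, H2-DMb1, H2-Oa, H2-Ob and Ciita. They were listed by name and not by a cut on measured values, although earlier results of these data were known when they were chosen. All 9 were among the 39056 genes of the count table. Ileal cells of C57BL/6 mice aged 9.0 to 10.3 weeks were sorted by CD45, the surface protein of hematopoietic cells, and their RNA was sequenced. Each of the 2 fractions held 4 genotypes with 3 libraries each, 24 libraries in all. Mice were Hoil1+/+ or Hoil1-/-, and within either genotype their Il4ra was intact (f/f) or deleted in the epithelium (ΔIEC). HOIL1, encoded by Rbck1, is a subunit of the linear ubiquitin chain assembly complex. The Hoil1-/- allele is a partial loss: a shortened N-terminal HOIL1 product is still made in small amounts. All mice, controls included, carried loxP-flanked Il4ra alleles, and in ΔIEC mice a Villin-driven Cre deletes them in intestinal epithelial cells (IECs). Peyer's patches had been removed, and a share of the stripped epithelium was pooled with the lamina propria digest before live single cells were sorted. The CD45+ fraction is thus hematopoietic, and the CD45- fraction is a mixture of epithelial, endothelial and stromal cells.

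MHC class II molecules present peptides from the endocytic pathway to CD4+ T cells. The α and β chains assemble in the endoplasmic reticulum on the invariant chain, Cd74, which fills the groove and routes the complex to endosomes, where it is cut down to a short peptide. H2-DM then releases that peptide and favours tightly bound ones, and H2-O, made mainly in B cells and some dendritic cells, holds H2-DM back. Ciita, the class II transactivator, does not bind DNA itself but is recruited to class II promoters by factors on the conserved W/S, X and Y boxes. Professional antigen-presenting cells express the pathway constitutively, and small intestinal enterocytes and endothelium can express it under interferon-γ.

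The promoter stretches that hold the shared elements are shown for the members that had them. In RefSeq promoter entries of GRCm38.p6 (250 bases before to 50 after a start site), 6 of the 9 members were present, in 7 entries. Only the 250 bases before the start site were searched, on both strands. The letters were GNAAC, the start of the X box, followed after 20 to 30 bases by TGATTGG, the Y box core that contains an inverted CCAAT. They were chosen after the sequences had been seen. Of the 6 members, 5 held the pair. Capitals mark GNAAC and TGATTGG, and each line reads 5′ to 3′ on the gene's strand, in GRCm38 coordinates. Start sites here are those of RefSeq, whereas the gene positions given further below are those of GENCODE M21. By the GENCODE positions, the H2-DMb1 stretch lies within the gene and the H2-Oa stretch reaches into it.
H2-Aa, chr17:34287859-34287912, minus strand: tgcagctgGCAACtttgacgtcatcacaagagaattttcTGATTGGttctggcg
H2-Eb1, chr17:34305768-34305820, plus strand: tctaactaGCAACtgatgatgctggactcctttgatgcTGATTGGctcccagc
H2-DMb1, chr17:34153089-34153142, plus strand: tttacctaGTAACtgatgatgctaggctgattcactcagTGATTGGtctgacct
H2-Oa, chr17:34092295-34092348, plus strand: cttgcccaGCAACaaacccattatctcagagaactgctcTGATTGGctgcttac
H2-Ob, chr17:34238810-34238860, plus strand: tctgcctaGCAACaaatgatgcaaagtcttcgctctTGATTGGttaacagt
The stretch between both elements was 23 bases in H2-Ob, 25 in H2-Eb1 and 26 in the other 3. Across all 32851 promoter entries, 0.271% held such a pair in those 250 bases and 7.23% held TGATTGG. The 2 entries of H2-DMa held no TGATTGG there. H2-Ab1, Cd74 and Ciita had no promoter entry and were therefore not searched. A match describes these letters and is not a measured binding site.

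The libraries held 14938629 to 76807504 assigned reads in CD45+ cells and 6028275 to 68345191 in CD45- cells. Levels are given in CPM, read counts divided by a TMM-scaled library size and brought to a common total. Rbck1 lay between 73.3 and 158 CPM in the 12 Hoil1+/+ libraries and between 0 and 15.9 CPM in the 12 Hoil1-/- libraries. Il4ra, counted over the whole gene, lay between 56.1 and 157 CPM in CD45- f/f libraries and between 45.3 and 129 CPM in CD45- ΔIEC libraries, so the genotypes overlapped. Ptprc, which encodes CD45, reached 252 to 755 CPM in CD45+ cells and 0 to 16.1 CPM in CD45- cells. The authors left 3 libraries out as outliers of a principal component analysis: CD45+ Hoil1-/- f/f replicate 1, CD45+ Hoil1-/- ΔIEC replicate 3 and CD45- Hoil1-/- f/f replicate 3. They enter the levels below, and the tests use the other 21 libraries, 10 CD45+ and 11 CD45-. The labels do not say which libraries came from the same mouse, and p-values measure only the spread between these samples. In bulk samples, fewer cells of a type and less RNA per cell cannot be told apart.

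The class II presentation genes were expressed mainly in the hematopoietic fraction, and 7 of the 9 were also counted, at lower levels, in every CD45- library. All 9 members were higher in CD45+ cells, by 11.2-fold for H2-DMb1 to 42.7-fold for H2-Eb1 among the 7 genes counted in every library. Every CD45+ library lay above every CD45- library for 9 of 9 members, against 6.76% of all genes tested. In the edgeR quasi-likelihood test, with Benjamini-Hochberg adjustment over 18778 genes and a threshold of 0.05, 9 of 9 members were higher in CD45+ cells, against 24.5% of all genes. The median log2 fold change was 4.70 over the 9 members and 0.03 over all genes tested.

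The classical chains form the peptide-binding heterodimers I-A (H2-Aa with H2-Ab1) and, for its β chain, I-E (H2-Eb1). H2-Ab1 (ENSMUSG00000073421.5, chromosome 17:34257689-34269419, plus strand) encodes the I-A β chain. In CD45+ cells, replicates 1, 2 and 3 held 9748, 5098 and 7852 CPM in Hoil1+/+ f/f, 4716, 4195 and 6608 in Hoil1+/+ ΔIEC, 10877, 4637 and 5437 in Hoil1-/- f/f, and 5552, 5521 and 9548 in Hoil1-/- ΔIEC. In CD45- cells the same order gave 247, 58.7 and 127 CPM, 641, 625 and 50.6 CPM, 376, 456 and 178 CPM, and 138, 84.4 and 273 CPM. The highest CD45- library, Hoil1+/+ ΔIEC replicate 1, was still 6.55 times below the lowest CD45+ library. The log2 fold change between fractions was 4.49 (SE 0.43, 95% confidence interval 3.57 to 5.40, adjusted p = 3.58e-07, edgeR). The CD45+ libraries spanned 2.59-fold and the CD45- libraries 12.7-fold, so the spread within CD45- cells was the wider one.

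H2-Aa (ENSMUSG00000036594.14, chromosome 17:34282744-34287823, minus strand), the I-A α chain, ranged from 2488 to 7425 CPM around a median of 3336 in CD45+ cells. In CD45- cells it ranged from 21.3 to 299 CPM around a median of 101. H2-Eb1 (ENSMUSG00000060586.10, chromosome 17:34305867-34316674, plus strand) ranged from 3191 to 9091 CPM around 4347 in CD45+ cells, and from 24.2 to 302 CPM around 101 in CD45- cells. Neither gene overlapped between fractions. Their log2 fold changes were 5.04 (SE 0.47, adjusted p = 2.36e-07) and 5.42 (SE 0.43, adjusted p = 4.88e-08). C57BL/6 mice lack a functional I-E α chain gene. Its pseudogene entry, H2-Ea-ps, stayed at or below 0.745 CPM in all 24 libraries.

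Cd74 (ENSMUSG00000024610.14, chromosome 18:60803848-60812652, plus strand), the invariant chain, had the highest level per length of exon of the 9 members in both fractions. It held 17472, 10881 and 17631 CPM in CD45+ replicates 1 to 3 of Hoil1+/+ f/f, 9751, 9253 and 15887 in Hoil1+/+ ΔIEC, 23970, 10414 and 15404 in Hoil1-/- f/f, and 13698, 13341 and 17510 in Hoil1-/- ΔIEC. The corresponding CD45- values were 911, 208 and 354 CPM, 2171, 2304 and 164 CPM, 1214, 1233 and 427 CPM, and 583, 286 and 733 CPM. The fractions did not overlap, and the CD45- libraries high in H2-Ab1 were also high in Cd74. The log2 fold change was 3.99 (SE 0.42, 95% confidence interval 3.09 to 4.88, adjusted p = 1.01e-06).

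H2-DM, the peptide editor, is a heterodimer of H2-DMa and a β chain. H2-DMa (ENSMUSG00000037649.9, chromosome 17:34119541-34139101, plus strand) ranged from 284 to 735 CPM around 400 in CD45+ cells and from 8.26 to 42.5 CPM around 25.4 in CD45- cells. H2-DMb1 (ENSMUSG00000079547.3, chromosome 17:34153072-34160230, plus strand) ranged from 220 to 671 CPM around 314 and from 9.69 to 60.6 CPM around 26.5. Both genes were separate between fractions, and H2-DMb1 had the smallest fraction difference of the 9 members. The log2 fold changes were 4.13 for H2-DMa (SE 0.30, adjusted p = 2.12e-08) and 3.48 for H2-DMb1 (SE 0.30, adjusted p = 1.31e-07). H2-DMb1 has a near-identical neighbour, H2-DMb2, and reads shared by both genes make their split uncertain. H2-DMb2 held 42.0 to 314 CPM in CD45+ cells and had no count in 10 of the 12 CD45- libraries. Its highest CD45- value, 6.51 CPM from 58 counts, was in a library that the authors left out.

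H2-O, the inhibitor of H2-DM, was counted almost wholly in CD45+ cells. H2-Oa (ENSMUSG00000024334.8, chromosome 17:34092340-34095234, plus strand) held 13.6 to 85.2 CPM in CD45+ cells, and 10 of the 12 CD45- libraries had no count. The 58 counts of the other 2, Hoil1-/- f/f replicate 1 at 1.98 CPM and Hoil1-/- ΔIEC replicate 2 at 1.23 CPM, made up its whole CD45- signal. H2-Ob (ENSMUSG00000041538.15, chromosome 17:34238903-34254414, plus strand) held 12.8 to 199 CPM in CD45+ cells and 0 to 2.05 CPM in CD45- cells, with no count in 5 of 12 and 135 counts in all. The mean CPM was 142 times higher in CD45+ cells for H2-Oa and 122 times higher for H2-Ob. Both passed the test of the fractions (adjusted p = 9.56e-06 and 1.74e-07, edgeR), and no fitted fold is given because many CD45- libraries were at 0. A floor of 3 counts corresponded to 0.0358 to 0.416 CPM in the CD45- libraries, and this limit covers counting error only.

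Ciita (ENSMUSG00000022504.9, chromosome 16:10480059-10528418, plus strand), the master transactivator, was the steadiest member within CD45+ cells. Its CD45+ libraries held 147, 150 and 197 CPM in Hoil1+/+ f/f, 106, 152 and 178 in Hoil1+/+ ΔIEC, 125, 124 and 134 in Hoil1-/- f/f, and 123, 144 and 148 in Hoil1-/- ΔIEC. Its CD45- libraries held 2.63, 2.90 and 2.68 CPM, 6.03, 11.1 and 4.75 CPM, 11.9, 8.82 and 9.43 CPM, and 5.76, 3.72 and 3.88 CPM in the same order. The CD45+ range was 1.86-fold, and the 3 CD45- Hoil1+/+ f/f libraries were the lowest of the 24. The log2 fold change between fractions was 4.70 (SE 0.19, 95% confidence interval 4.29 to 5.10, adjusted p = 2.4e-10).

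**Figure D1:**
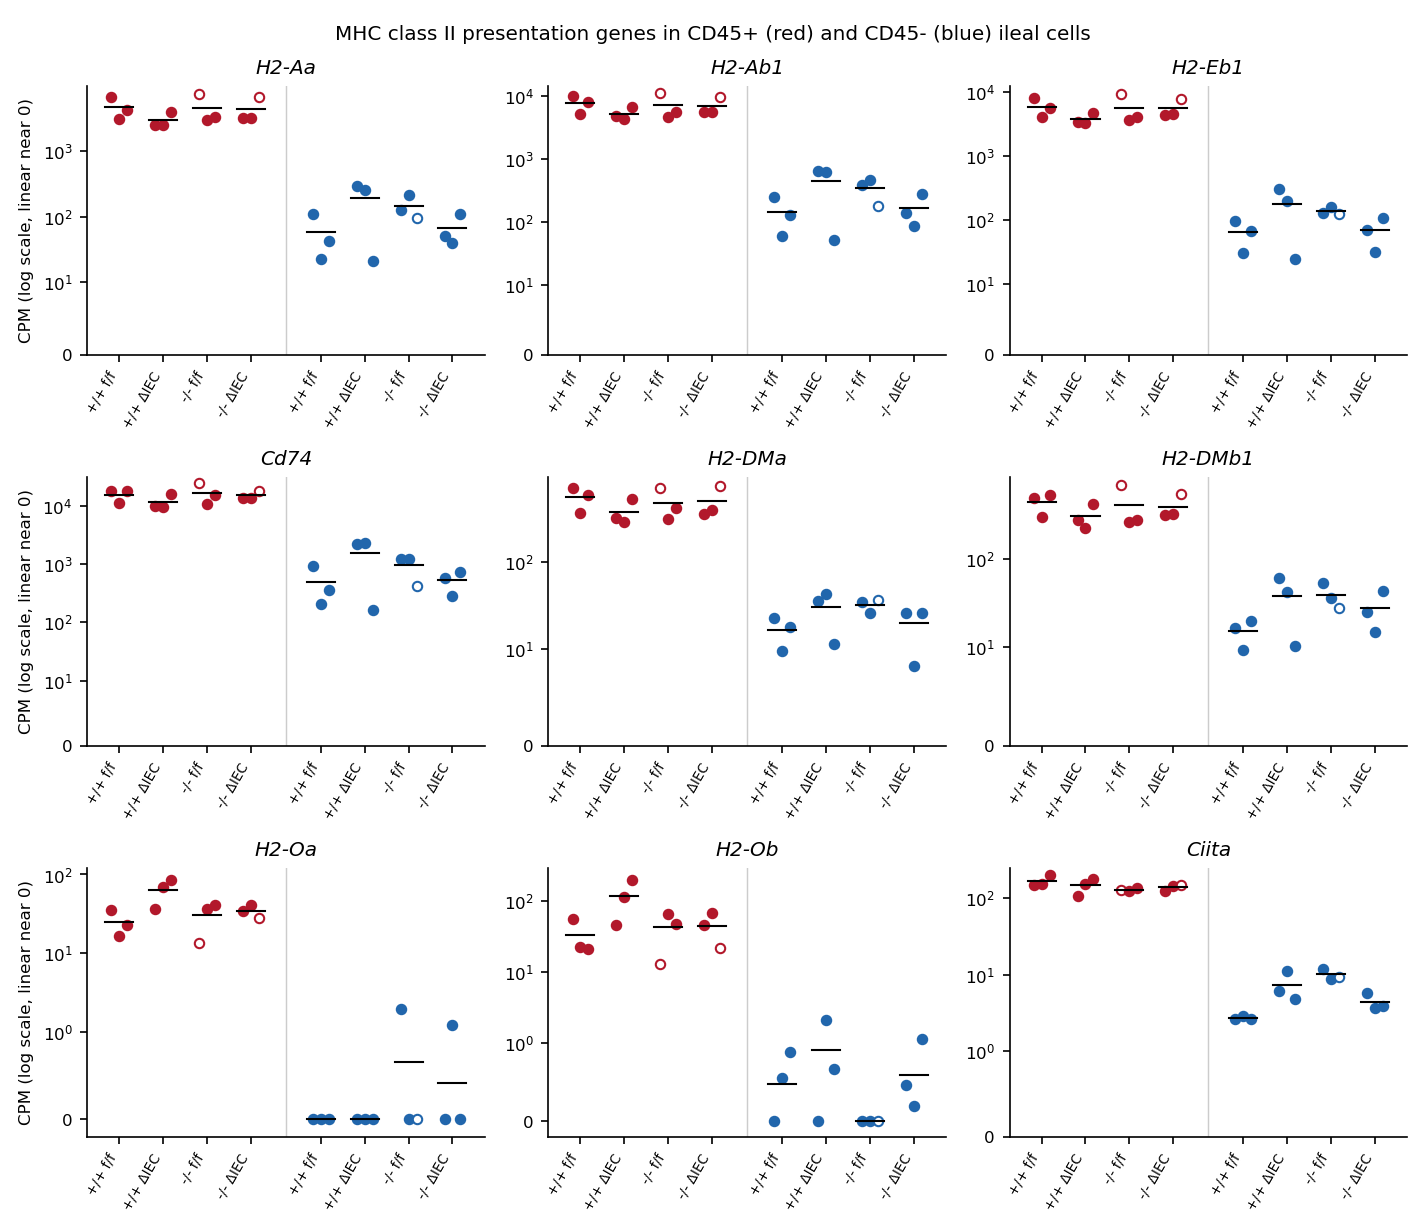
CPM on a log axis, linear near 0, in each library for the 9 members, by genotype, with CD45+ cells in red and CD45- cells in blue; each bar is the mean of 3 libraries and open circles are the 3 libraries that the authors left out. All red points lie above all blue points in each panel.

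The fraction difference was present in each genotype. In the same fit, 9 of 9 members were higher in CD45+ cells of Hoil1+/+ f/f mice, where 11.2% of all genes were. The counts were also 9 of 9 in Hoil1+/+ ΔIEC (12.8% of all genes), Hoil1-/- f/f (10.9%) and Hoil1-/- ΔIEC (10.4%). The weakest call was H2-Oa in Hoil1-/- f/f, with an adjusted p of 0.0375. The log2 fold change of H2-Ab1 was 5.71 in Hoil1+/+ f/f, 3.56 in Hoil1+/+ ΔIEC, 3.60 in Hoil1-/- f/f and 5.07 in Hoil1-/- ΔIEC. For Ciita the corresponding values were 5.91, 4.33, 3.64 and 4.90. In the contrast averaged over genotypes, all 9 calls were kept under every alternative run for it and with each of the 21 libraries left out in turn. The calls within a genotype were not re-run under these alternatives.

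**Figure D2:**
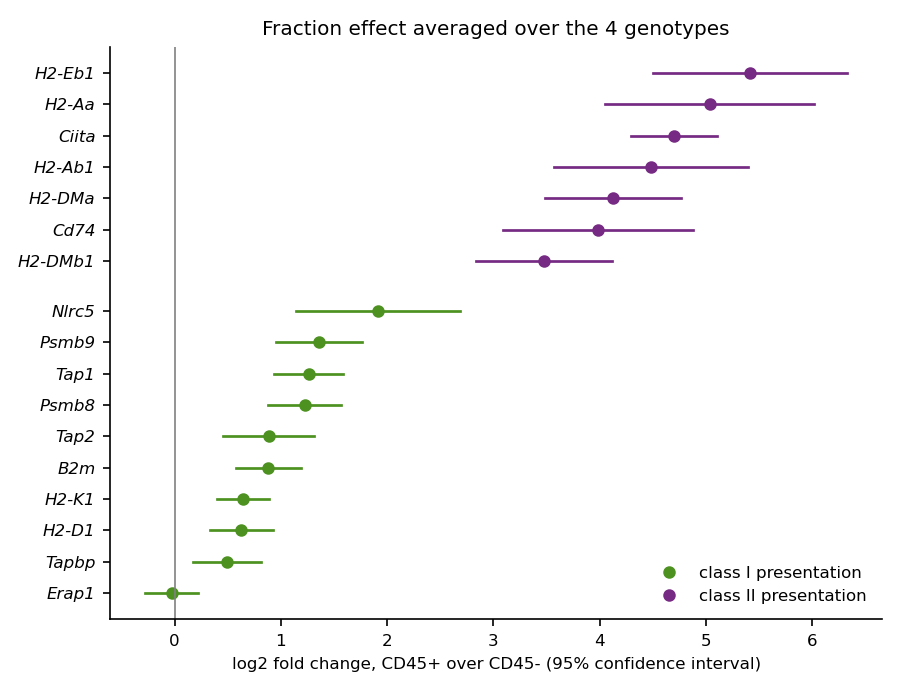
Log2 fold change of CD45+ over CD45- cells with its 95% confidence interval, averaged over the 4 genotypes, for the 7 class II members counted in every library and 10 class I presentation genes. The class II members lie between 3.48 and 5.42, above the class I genes, which lie between -0.03 and 1.92.

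Levels of different genes were compared as CPM per kilobase of exon. The median level in CD45+ cells fell in the order Cd74 (8667), H2-Eb1 (2236), H2-Ab1 (2156), H2-Aa (878), H2-DMb1 (187), H2-DMa (116), H2-Oa (25.3), Ciita (15.3) and H2-Ob (8.72). Over the 12 libraries, neighbours in this order overlapped in range except Cd74 with H2-Eb1, H2-Aa with H2-DMb1, and H2-DMa with H2-Oa. In CD45- cells the order was Cd74 (392), H2-Ab1 (82.9), H2-Eb1 (51.8), H2-Aa (26.5), H2-DMb1 (15.8), H2-DMa (7.35), Ciita (0.551), H2-Ob (0.0604) and H2-Oa (0). There all neighbours overlapped in range except H2-DMa with Ciita. H2-Eb1 and H2-Ab1 exchanged places between the fractions, and H2-Oa moved from above Ciita to below it.

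The balance among members within a library differed between fractions, and these ratios are descriptions with no test. Per 100 of H2-Ab1 on the same per-length scale, H2-Eb1 stood at 91.2 to 110 (median 103) in CD45+ libraries and at 41.0 to 90.9 (median 56.8) in CD45- libraries. H2-Aa stood at 36.5 to 47.2 in CD45+ and 22.5 to 35.6 in CD45- libraries, also without overlap. H2-DMb1 ran the other way, at 7.60 to 10.0 in CD45+ and 10.1 to 31.2 in CD45- libraries. The CD45- fraction thus held less H2-Eb1 and H2-Aa and more reads assigned to H2-DMb1 per unit of H2-Ab1. The H2-DMb1 ratio leaves out its near-identical neighbour H2-DMb2, with medians of 56.3 CPM per kilobase in CD45+ and 0 in CD45- libraries. The split of reads between both genes is uncertain, so the separation of the H2-DMb1 ratio may depend on it. Cd74 stood at 274 to 433 and at 366 to 644, and H2-DMa at 4.68 to 5.87 and at 4.13 to 16.9, so these ratios overlapped. Ciita per 100 of H2-Ab1 had similar medians, 0.670 and 0.709, over ranges of 0.310 to 0.977 and 0.254 to 2.53. H2-Oa per 100 of H2-DMa was 4.73 to 59.4 in CD45+ libraries and 0 in the median CD45- library, and H2-Ob per 100 of H2-DMb1 was 0.594 to 16 against 0 to 2.02.

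Hematopoietic RNA in the CD45- libraries was measured beside these levels. The summed CPM of 8 hematopoietic markers (Ptprc, Coro1a, Laptm5, Cd52, Cd53, Vav1, Lcp2 and Ikzf1) in each CD45- library was 0.0786 to 3.08% of the CD45+ median, with a median of 0.562%. On the same scale H2-Ab1 stood at 0.913 to 11.6%, Cd74 at 1.13 to 15.8%, H2-DMb1 at 3.09 to 19.3% and Ciita at 1.81 to 8.18%. Each of the 7 members counted in every library stood above the hematopoietic percentage of its own library in 12 of 12 CD45- libraries. The 10 macrophage markers stood at 0.414 to 1.61% and the 10 B cell markers at 0.0385 to 2.00%. They were above the hematopoietic percentage of their library in 10 and 5 of the 12 libraries. In 1 of these 5 the B cell and hematopoietic percentages both rounded to 1.14%. Of 8 dendritic cell markers, Flt3, Zbtb46, Itgax, Xcr1 and Clec10a had counts in CD45- libraries, and Clec9a, Cd209a and Siglech had none in any. The summed list stood at 6.26 to 60.5 CPM (median 22.2) in CD45- cells and at 306 to 606 CPM (median 449) in CD45+ cells. Percentages by library were not computed for this list. The hematopoietic sum was highest in Hoil1-/- f/f, at 58.5 to 125 CPM, and 3.20 to 46.2 CPM in the other CD45- groups. Its part in the CD45- class II levels was not tested.

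Within CD45- cells, the class II chains were high in the libraries with the most epithelial RNA. The 10 epithelial markers include Epcam, Vil1 and Alpi, and the 10 endothelial markers include Pecam1, Cdh5 and Plvap. Hoil1+/+ ΔIEC replicates 1 and 2, with 641 and 625 CPM of H2-Ab1, had epithelial sums of 35859 and 36694 CPM and endothelial sums of 3869 and 3801 CPM. Replicate 3 of that group, at 50.6 CPM of H2-Ab1, had 3157 CPM epithelial and 11497 CPM endothelial. Hoil1-/- f/f replicates 1 and 2, at 376 and 456 CPM, had epithelial sums of 31816 and 27192 CPM. At the other end, Hoil1-/- ΔIEC replicate 2 had 84.4 CPM of H2-Ab1 beside 1090 CPM epithelial and 15304 CPM endothelial, and Hoil1+/+ f/f replicate 2 had 58.7 CPM beside 2062 and 12746 CPM. The 2 highest H2-Ab1 values thus lay in the 2 libraries with the highest epithelial sums, and the 3 lowest in libraries with endothelial sums of 11497 CPM or more. Stromal markers such as Col1a1 and Dcn summed to 615 to 10774 CPM across the 12 libraries. Within Hoil1+/+ ΔIEC the epithelial sum ran from 3157 to 36694 CPM and within Hoil1-/- ΔIEC from 1090 to 13930 CPM, so a genotype difference in these cells cannot be told apart from cell composition by the levels alone.

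**Figure D3:**
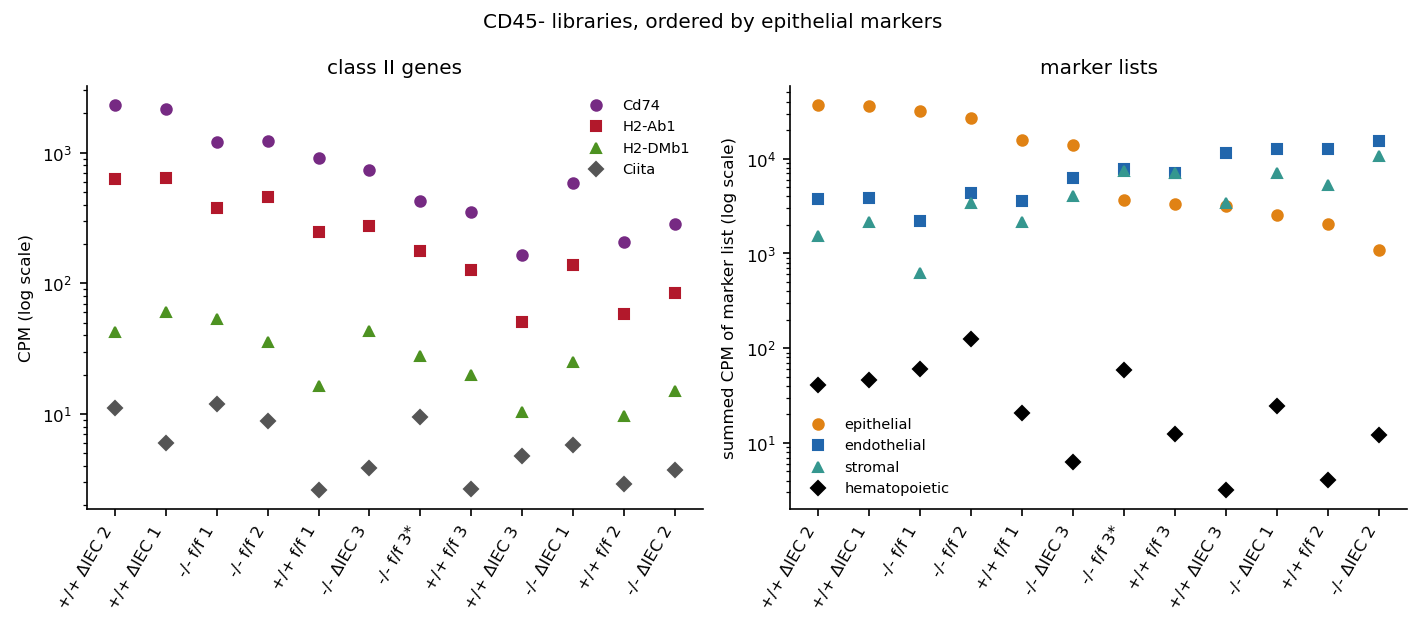
CPM of class II genes (left) and summed CPM of marker lists (right) in the 12 CD45- libraries, ordered by the epithelial sum, on log axes; an asterisk marks the library that the authors left out. The 4 libraries with the most H2-Ab1, 376 to 641 CPM, have epithelial sums of 27192 to 36694 CPM.

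The genes most like the classical chains and Cd74 were ranked by Pearson's r of log2(CPM + 1) values over the 12 CD45- libraries. The reference was the mean of H2-Aa, H2-Ab1, H2-Eb1 and Cd74, and 9305 genes of at least 10 CPM on average were compared. The 5 highest were Apol9a (r = 0.956), Tent5a (0.954), Cox7b (0.950), Fam3b (0.947) and Cox6b1 (0.943). Apol9a, an interferon-inducible gene, ranged from 0.549 to 186 CPM. Cox7b and Cox6b1 encode subunits of cytochrome c oxidase, and Fam3b is expressed in gut epithelium. Among the members outside the mean, r was 0.899 for H2-DMb1, 0.872 for H2-DMa and 0.588 for Ciita. These correlations are descriptive, and all points share the cell mixture and depth of their library.

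Within CD45+ cells, the mean of the classical chains and Cd74 moved with H2-DM and apart from H2-O. The same ranking over the 12 CD45+ libraries and 8719 genes gave C1qa (r = 0.980), Npc2 (0.979), Fcgrt (0.973), Akr1a1 (0.967) and Ctss (0.966). C1qa encodes a chain of complement C1q made by macrophages, and Ctss, cathepsin S, cleaves the invariant chain. H2-DMa stood at 0.972, H2-DMb1 at 0.957 and Ciita at 0.230, whereas H2-Oa stood at -0.461 and H2-Ob at -0.508. H2-Ab1 was highest in Hoil1-/- f/f replicate 1 (10877 CPM), Hoil1+/+ f/f replicate 1 (9748 CPM) and Hoil1-/- ΔIEC replicate 3 (9548 CPM), and the first and last of these are libraries that the authors left out. These were also the 3 libraries with the highest sums of the 10 macrophage markers, 14430, 10450 and 9878 CPM, against 3310 to 7968 CPM in the other 9. Their part in the class II levels was not tested. H2-Ob held 56.5, 22.8 and 21.2 CPM in Hoil1+/+ f/f, 45.6, 113 and 199 in Hoil1+/+ ΔIEC, 12.8, 66.5 and 48.2 in Hoil1-/- f/f, and 45.4, 67.5 and 21.9 in Hoil1-/- ΔIEC. The B cell markers, such as Cd79a and Ms4a1, summed to 562 to 1795 CPM in Hoil1+/+ ΔIEC and to 285 to 978 CPM in the other groups. The 2 libraries highest in H2-Ob, Hoil1+/+ ΔIEC replicates 3 and 2, also had the highest B cell sums, 1795 and 1250 CPM.

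**Figure D4:**
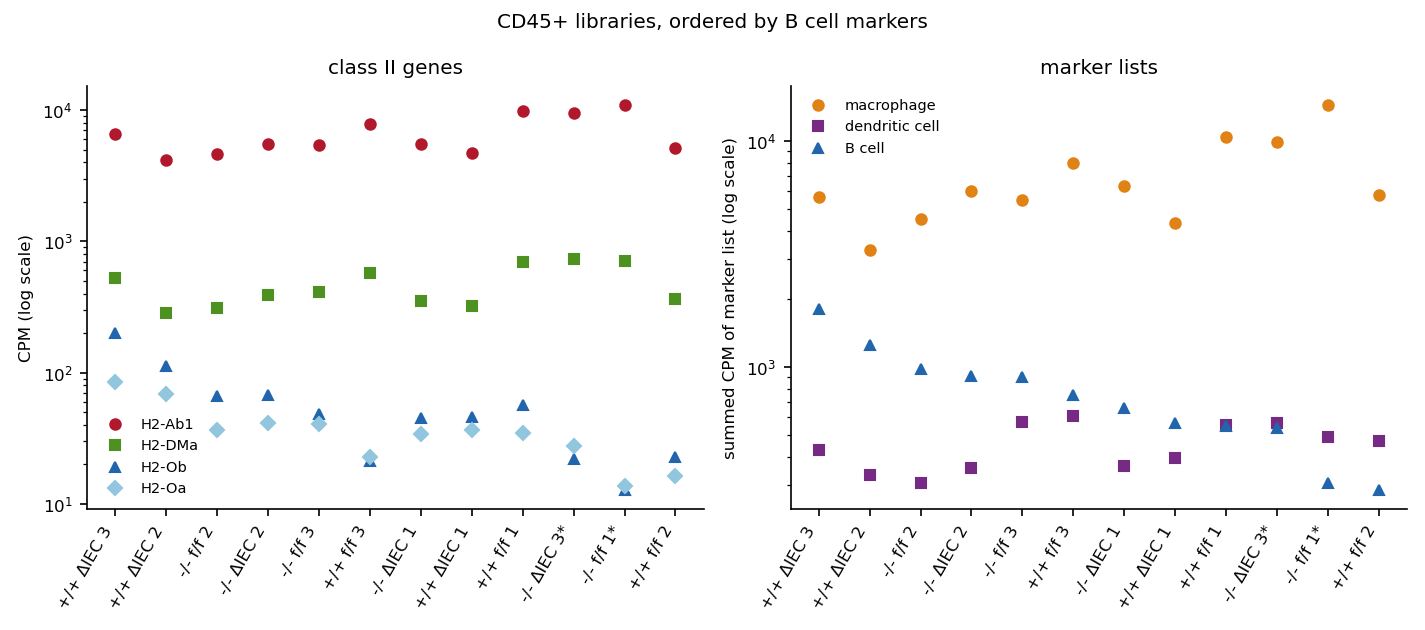
CPM of class II genes (left) and summed CPM of marker lists (right) in the 12 CD45+ libraries, ordered by the B cell sum, on log axes; an asterisk marks the 2 libraries that the authors left out. H2-Ob rises to 199 CPM and the B cell sum to 1795 CPM, while the macrophage sum spans 3310 to 14430 CPM.

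The question whether Hoil1 changed class II expression was put to each fraction separately, averaged over the Il4ra genotypes. In CD45+ cells, all 9 fitted log2 fold changes were below 0, from -0.03 for Cd74 to -0.34 for H2-DMb1 (95% confidence interval -0.85 to 0.17), with a median of -0.24 against -0.05 over all genes. None of the 9 passed the edgeR test or reached an unadjusted p of 0.05, and 0.00587% of 17029 genes were called. Over all genes, 996 had an unadjusted p below 0.05. DESeq2 called 0 of 9 members as well. For H2-Ab1 the fold change was -0.26 (SE 0.23, 95% confidence interval -0.78 to 0.26, adjusted p = 0.873), and for Ciita it was -0.26 (SE 0.19, 95% confidence interval -0.67 to 0.16, adjusted p = 0.83). For every member but Ciita the sign depended on the libraries used. With all 12 CD45+ libraries, 6 of the 9 lay above 0, from 0.10 for H2-DMa to 0.26 for H2-Aa, with 0.15 for H2-Ab1. Ciita (-0.22), H2-Oa (-0.30) and H2-Ob (-0.54) stayed below 0 there. With 1 library left out, H2-Oa ranged from -0.215 to 0.095 and H2-Ob from -0.36 to 0.138. With the mean log2 CPM of the B cell markers as a covariate, all 9 lay further below 0, and 0 were called. The values were -0.40 for H2-Ab1, -0.51 for H2-Oa, -0.53 (SE 0.21) for Ciita and -0.93 (SE 0.36) for H2-Ob. The intervals of the 7 members other than H2-O lay within -0.88 and 0.52.

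In CD45- cells the Hoil1 effect was small against its error. Among the 7 members counted in every library, the log2 fold change ran from -0.10 for Cd74 (SE 0.61, 95% confidence interval -1.44 to 1.24) to 0.61 for Ciita (SE 0.41, 95% confidence interval -0.28 to 1.5, adjusted p = 0.98). For H2-Ab1 it was 0.07 (SE 0.60, 95% confidence interval -1.25 to 1.39). The test called 0 of 9 members, against 0.0182% of 16453 genes, and of these 7 none reached an unadjusted p of 0.05, against 868 genes in all. DESeq2 also called 0. The interval of H2-Ab1 spans a more than 2-fold change either way, which the 11 libraries could not resolve. H2-Oa had counts in 2 of the 6 Hoil1-/- and 0 of the 6 Hoil1+/+ CD45- libraries, and H2-Ob in 3 of 6 and 4 of 6.

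**Figure D5:**
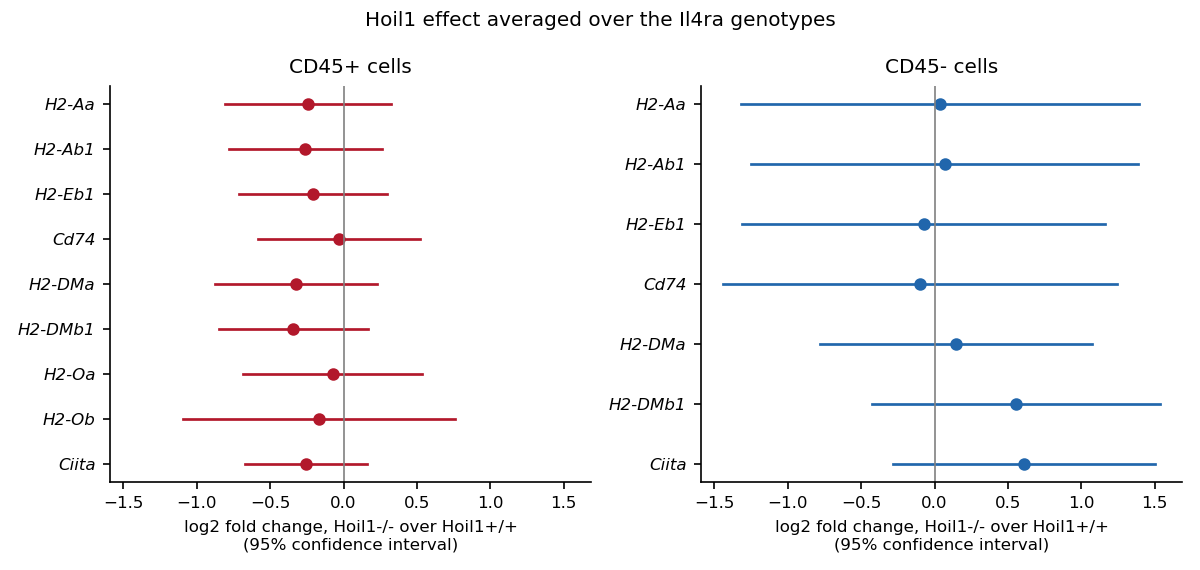
Log2 fold change of Hoil1-/- over Hoil1+/+ with its 95% confidence interval, averaged over the Il4ra genotypes, for 9 members in CD45+ cells (left) and the 7 counted in every library in CD45- cells (right). All intervals cross 0, and those of CD45- cells are the wider ones.

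The difference of the Hoil1 effect between fractions was tested in 1 fit of the 21 libraries. Ciita had a log2 difference of -0.85 (SE 0.32, 95% confidence interval -1.53 to -0.17, adjusted p = 0.797). For H2-Ab1 the difference was -0.30 (SE 0.73, adjusted p = 1). None of the 9 members passed, against 0.0266% of all genes, and 3 of 9 had an unadjusted p below 0.05, of which 2 were H2-Oa and H2-Ob with CD45- libraries at 0. Over all genes, 1029 had an unadjusted p below 0.05, and DESeq2 called 0 members. Without CD45- Hoil1-/- f/f replicate 2, 1 member, H2-Oa, was called, and in that setting 1.05% of 20142 genes were.

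The effect of Il4ra deletion in IECs, averaged over Hoil1, did not pass the test for any member in CD45+ cells. In the tested libraries the mean of H2-Oa was 24.6 ± 9.46 CPM (SD, n = 3) in f/f and 63.5 ± 24.8 CPM (n = 3) in ΔIEC mice on Hoil1+/+, and 38.4 ± 2.98 (n = 2) and 37.6 ± 5.33 CPM (n = 2) on Hoil1-/-. For H2-Ob the means were 33.5 ± 20.0 and 119 ± 76.7 CPM on Hoil1+/+, and 57.3 ± 12.9 and 56.4 ± 15.6 CPM on Hoil1-/-. The higher ΔIEC mean was thus seen on Hoil1+/+ and not on Hoil1-/-. Averaged over Hoil1, the log2 fold change was 0.68 for H2-Oa (SE 0.27, adjusted p = 0.449, edgeR) and 0.91 for H2-Ob (SE 0.42, adjusted p = 0.474). The other 7 members lay between -0.31 and -0.06. No member was called, against 0.00587% of all genes, and 1 of 9, H2-Oa, had an unadjusted p below 0.05, against 1805 genes in all. The B cell markers moved with this contrast, with 7 of 10 at an unadjusted p below 0.05 and a median log2 fold change of 1.60. With the mean log2 CPM of these markers as a covariate, the fold changes were -0.18 for H2-Oa (SE 0.366) and -0.61 for H2-Ob (SE 0.486). The covariate also moved other members, H2-Ab1 from -0.196 (SE 0.232) to -0.446 (SE 0.402). The part of B cell content in the H2-O values was not tested. In CD45- cells the same contrast gave 0.10 for Ciita to 0.32 for H2-DMb1 among the 7 members counted in every library. No member was called or reached an unadjusted p of 0.05, the share of all genes called was 0%, and 971 genes had an unadjusted p below 0.05. DESeq2 called 0 members in both fractions.

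The interaction of both genotypes asks whether the Hoil1 effect differed between ΔIEC and f/f mice. In CD45+ cells no member was called by edgeR or DESeq2, the share of all genes called was 0%, and 1 member, H2-Oa, had an unadjusted p below 0.05, against 1193 genes in all. H2-Oa had an interaction of -1.40 on the log2 scale (SE 0.55, adjusted p = 0.701, edgeR) and H2-Ob of -1.85 (SE 0.83, adjusted p = 0.701). The other 7 lay between 0.23 for Ciita and 0.84 for H2-Eb1. The B cell markers had the same sign as H2-O in this contrast, with a median of -2.67. With the mean log2 CPM of these markers as a covariate, the interactions were 0.35 for H2-Oa (SE 0.743) and 1.32 for H2-Ob (SE 1.008). That of Ciita moved to 1.23 (SE 0.572). The part of B cell content in these interactions was not tested.

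In CD45- cells the interaction was negative for the 7 members counted in every library. It ran from -1.46 for H2-DMa to -3.09 for H2-Aa, with a median of -2.64 against 0.30 over all genes, and adjusted p-values of 0.148 to 0.341 (edgeR). Within f/f mice the Hoil1 fold change was 1.53 for H2-Ab1 (SE 0.88) and 1.93 for Ciita (SE 0.60, adjusted p = 0.315), and within ΔIEC mice it was -1.39 (SE 0.82) and -0.71 (SE 0.55, adjusted p = 0.748). In f/f mice, Ciita held 8.82 to 11.9 CPM in the 3 Hoil1-/- libraries and 2.63 to 2.90 CPM in the 3 Hoil1+/+ libraries. The Hoil1-/- range includes replicate 3, which was outside the test. Of the other members counted in every library, H2-Aa, H2-Ab1 and Cd74 overlapped between these groups, and H2-Eb1, H2-DMa and H2-DMb1 did not. The share of all genes without overlap was not computed, so these separations do not show whether the members were unusual. In the test of Hoil1 within f/f mice, 2161 of 16453 genes had an unadjusted p below 0.05, and 0.0365% were called (edgeR). In ΔIEC mice, Ciita held 3.72 to 5.76 CPM in Hoil1-/- and 4.75 to 11.1 CPM in Hoil1+/+ libraries, which overlapped. The main test called 0 of 9 members, the share of all genes called was 0%, and 5 of 9 had an unadjusted p below 0.05 (Cd74, Ciita, H2-Aa, H2-Ab1 and H2-DMb1), against 3409 genes in all. DESeq2 called 1 member, Ciita, at -2.71 (SE 0.75, adjusted p = 0.00924).

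The estimates of that interaction changed with epithelial markers as a covariate and with a single library left out. Of the 10 epithelial markers, 9 had an unadjusted p below 0.05 for the same interaction, with a median of -3.66. The mean log2 CPM of the epithelial markers was then used as a covariate. With it, the interaction was 0.75 for H2-Aa (SE 1.055), 0.98 for H2-Ab1 (SE 0.968), 1.22 for H2-Eb1 (SE 0.991) and 1.17 for Cd74 (SE 1.08). None of these passed (adjusted p = 0.891 to 0.976, edgeR), and their sign was not resolved. For Ciita the interaction with this covariate was -2.06. Without Hoil1+/+ ΔIEC replicate 3, the library with the least H2-Ab1, 4 of 9 members were called (H2-Aa, H2-Ab1, H2-Eb1 and Cd74), at -2.99 to -3.63. In that setting 7.48% of 16019 genes were called, and in the DESeq2 fit 8.91% of 16453, so calls were frequent over all genes in both. The part of epithelial content in the interaction was not tested beyond this covariate. The hematopoietic sum differed in the same direction as Ciita, at 60.2, 125 and 58.5 CPM in Hoil1-/- f/f against 20.9, 4.07 and 12.5 CPM in Hoil1+/+ f/f, and at 24.8, 12.2 and 6.23 CPM in Hoil1-/- ΔIEC against 46.2, 40.4 and 3.20 CPM in Hoil1+/+ ΔIEC. Its part in the interaction was not tested.

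The other genes of the pathway gave the setting of the fraction difference. In this contrast, 24.5% of all genes tested were higher in CD45+ cells, and 49.6% were called in either direction. Of 3 other class II chain genes, 2 were higher in CD45+ cells. H2-DMb2 (adjusted p = 1.58e-08) is described above, and H2-Eb2 (adjusted p = 5.56e-07) held 8.15 to 73.8 CPM in CD45+ cells and had no count in 11 of 12 CD45- libraries. Of 16 genes of class II transcription and interferon-γ signalling, 10 were higher in CD45+ cells and none lower. They included Irf8, a myeloid and B cell transcription factor (log2 fold change 2.36, SE 0.21), Ifngr1, an interferon-γ receptor chain (1.31, SE 0.13), the kinase gene Jak2 (1.06, SE 0.14) and Spi1, encoding PU.1 (adjusted p = 4.74e-07). The median of the 16 was 0.84.

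Of 7 antigen processing genes, 5 were higher in CD45+ cells and none lower. Lgmn, encoding the asparaginyl endopeptidase legumain, had a log2 fold change of 4.19 (SE 0.20). Ctss had 5.18 (SE 0.38), Ctsb 1.78 (SE 0.15) and Ctsh 2.87 (SE 0.25), the latter 3 encoding cathepsins. Of 6 genes of class II turnover and costimulation, 5 were higher. Cd86 and Cd80, the ligands of CD28, had no count in CD45- cells (adjusted p = 2.09e-09 and 2e-07), and March1, a ubiquitin ligase that removes class II from the surface of antigen-presenting cells, was also higher (adjusted p = 9.41e-07). March8, its broadly expressed relative, was lower in CD45+ cells, with a log2 fold change of -1.42 (SE 0.12, adjusted p = 7.05e-08).

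Class I presentation, which most nucleated cells carry out, differed less between fractions. Of its 10 genes, 9 were higher in CD45+ cells and none lower, with a median log2 fold change of 0.89 and a range of -0.03 to 1.92. Tap1, a peptide transporter subunit, had 1.26 (SE 0.15), the immunoproteasome genes Psmb8 and Psmb9 had 1.22 (SE 0.16) and 1.36 (SE 0.19), and B2m, the class I light chain, had 0.88 (SE 0.14). The ranges of the 7 class II members, 3.48 to 5.42, and of these 10 genes did not overlap. In the Hoil1 and Il4ra contrasts and their interactions, no gene of these 5 lists was called in either fraction by edgeR.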

How the data were processed

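RNA of sorted CD45+ and CD45- ileal cells was analysed in 24 libraries, 3 for each of 2 fractions and 4 genotypes. The authors trimmed and aligned reads with STAR and counted them per gene with featureCounts (GRCm38/mm10, Ensembl annotation); tool versions are not given in the sources used here, nor is the strand setting of the counting, so overlapping and antisense genes may share reads. The deposited values are raw counts, with no normalization. Gene names and positions here come from GENCODE M21, which 38872 of the 39056 gene IDs matched without the version suffix (34299 with it). Of all IDs, 15867 had no count.

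Groups came from the sample labels. CPM used TMM factors over all 24 libraries. Tests used edgeR 4.0.16 in R 4.3.3 (limma 3.58.1): filterByExpr (minimum count 10, minimum total 15), TMM, 1 mean per group, two-sided quasi-likelihood tests, and Benjamini-Hochberg adjustment over all genes at 0.05. The fraction fits used 21 libraries, and the Hoil1, Il4ra and interaction fits the 10 CD45+ or 11 CD45- libraries. This follows the study's exclusion of 3 libraries and its per-fraction model.

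All 9 members are named in every comparison. Genes of 5 related lists are named where they pass, at most 4 a list by smallest adjusted p. Alike genes were ranked among those of at least 10 mean CPM. The members and lists were chosen with earlier results of these data known. Alternatives were all libraries, DESeq2 1.42.0, RLE scaling, no count filter and immunoglobulin genes (422) removed. In the fits within a fraction, the mean log2 CPM of the B cell (CD45+) or epithelial (CD45-) markers was also used as a covariate. Further alternatives left out each library and, chosen after seeing the data, took age within genotype as a block. Total depth was 6028275 to 76807504 counts, and floors of 3 counts cover counting error only. Levels were computed with Python 3.11.15, pandas 2.3.3 and numpy 2.4.6, and figures with matplotlib 3.10.9.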

Additional observations from a re-analysis of the deposited data

How the results depend on the processing

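The fraction difference kept 9 of 9 members called under every alternative run for it and every omission of a library. No paired analysis was possible because replicate numbers follow accession order only and the labels do not tie libraries of the fractions to a mouse. The labels do give ages, and a block on age within genotype, chosen after seeing the data, also called 9 of 9 members for the fraction difference (H2-Ab1 at 5.00, SE 0.46) and 0 for the difference of the Hoil1 effect. DESeq2 moved the median of all genes in the fraction contrast from 0.03 to -0.08, and RLE scaling moved no median by more than that. Over all genes DESeq2 called more than edgeR: 126 against 1 for Hoil1 in CD45+, 168 against 3 in CD45-, 341 against 1 for Il4ra in CD45+, 159 against 0 in CD45-, 160 and 1466 against 0 for the interactions, and 262 against 5 for the difference of the Hoil1 effect. With 1 library left out these counts were 1 to 10, 1 to 173, 0 to 8, 0 to 220, 0 and 0 to 1199, and 2 to 211 in the same order, and under the other alternatives they were at most 10.

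The number of members called for the CD45- interaction was 1 with DESeq2 and 0 to 4 with 1 library left out, and for the difference of the Hoil1 effect it was 0 to 1. With all libraries, the CD45+ Hoil1 effect turned to 0.26 for H2-Aa, 0.149 for H2-Ab1, 0.248 for H2-Eb1, 0.101 for H2-DMa, 0.124 for H2-DMb1 and 0.235 for Cd74, the CD45- effect to -0.076 for H2-Aa and -0.077 for H2-Ab1, and the difference for H2-Ab1 to 0.241. With epithelial markers as a covariate, the CD45- Hoil1 effect turned to 0.005 for H2-Eb1 and 0.152 for Cd74, and the interaction to 0.752 for H2-Aa, 0.983 for H2-Ab1, 1.218 for H2-Eb1, 0.907 for H2-DMa, 0.675 for H2-DMb1 and 1.171 for Cd74. With B cell markers as a covariate, the Il4ra effect turned to -0.183 for H2-Oa and -0.614 for H2-Ob, and the CD45+ interaction to 0.351 and 1.315.

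With 1 library left out, the CD45+ Hoil1 effect ranged from -0.182 to 0.119 for Cd74, -0.215 to 0.095 for H2-Oa and -0.36 to 0.138 for H2-Ob. In CD45- cells it ranged from -0.368 to 0.31 for Cd74, -0.267 to 0.453 for H2-Aa, -0.24 to 0.393 for H2-Ab1, -0.334 to 0.258 for H2-Eb1 and -0.053 to 0.338 for H2-DMa. The Il4ra effect ranged from -0.141 to 0.037 for Ciita in CD45+ cells, and in CD45- cells from -0.121 to 0.236 for Ciita and -0.154 to 0.482 for H2-Ab1. None of these turned values passed the test, and the cause was not tested. Of the other single-gene values, 941 kept their direction and call, and 5 gained a call in the CD45- interaction. H2-Oa and H2-Ob in CD45- cells are limited by their 58 and 135 counts.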

Other observations

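The other class II β chain genes, H2-DMb2 and H2-Eb2, were highest in the same 2 CD45+ libraries as H2-Oa and H2-Ob. H2-DMb2 held 84.3, 42.0 and 79.3 CPM in Hoil1+/+ f/f replicates 1 to 3, 99.9, 198 and 314 in Hoil1+/+ ΔIEC, 53.6, 132 and 96.9 in Hoil1-/- f/f, and 84.4, 125 and 102 in Hoil1-/- ΔIEC. H2-Eb2 held 20.6, 9.46 and 22.6 CPM, 18.4, 45.6 and 73.8 CPM, 8.15, 32.6 and 34.0 CPM, and 27.8, 19.9 and 39.4 CPM in the same order. Both genes were highest in Hoil1+/+ ΔIEC replicate 3, followed by replicate 2, as were H2-Oa (85.2 and 68.7 CPM) and H2-Ob (199 and 113 CPM). H2-DMb2 and H2-DMb1 are near-identical, but the library highest in H2-DMb1 was Hoil1-/- f/f replicate 1 at 671 CPM, where H2-DMb2 stood at 53.6 CPM. These orders were noticed in the data and were not tested.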
